A study of Mus musculus with 3 samples.

Results

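Il1b, Il1rn, Tnf, Osm, Il10 and Il18, the CSF1R ligands Csf1 and Il34, and the receptors Csf1r and Osmr were followed through 3 single-cell RNA libraries of mouse kidney cortex. These 10 genes were taken by name from the 22535 genes of the count tables, and each had UMIs (counted RNA molecules) in every library. The mice were WT1CreERT2; Rosa26-tdTfl/+, a line whose Wt1-expressing cells, chiefly podocytes and parietal epithelial cells (PECs), become marked with the red fluorescent protein tdT when tamoxifen is given. The Sham library came from sham-operated mice and the IRI24h-TDN library from mice 24 h after severe bilateral renal ischemia-reperfusion injury (IRI), and both were mixtures of sorted tdT+ cells, in excess, with tdT- cells. The IRI24h-TD library held sorted tdT+ cells alone at the same 24 h. Cells came from pooled kidneys, strain and age are not given in the sources used here, and the tdT label stays in the descendants of labelled cells. With 1 library per condition there was no replicate, so no difference was tested. Brackets after a value hold exact 95% intervals that cover counting error only, and the condition and the library cannot be told apart.

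After removal of barcodes with fewer than 200 genes or more than 50% mitochondrial UMIs, 26760 of 30008 barcodes were kept, with a median of 7746 (Sham), 9151 (IRI24h-TDN) and 9529 (IRI24h-TD) UMIs per cell. Classes were named from marker genes and are called "-like" because the names were rebuilt here. Podocyte-like cells numbered 4220, 5029 and 8102 in Sham, IRI24h-TDN and IRI24h-TD, PEC-like cells 778, 212 and 283, and proximal tubular epithelial (PTEC)-like cells 997, 153 and 89. The PTEC-like class joined a cluster led by Kap (738, 150 and 89 cells) and one led by Spp2 (259, 3 and 0 cells). Its make-up thus differed between Sham and the IRI libraries, and the part of this in the PTEC ratios was not tested. Macrophage-like cells numbered 238, 639 and 10, and monocyte- and dendritic-like cells 48, 225 and 3, so leukocytes could be compared between Sham and IRI24h-TDN only. All markers of each named class had a UMI in it in Sham and IRI24h-TDN wherever it had at least 20 cells. Not all of them were found in at least 10% of the cells of each cluster. In the Xcr1-led and Cd209a-led subclusters only 6 monocyte and dendritic cell markers were. Cells left without a name made up 7.31%, 7.08% and 10.8% of the 3 libraries. Each pair of libraries shared between 82 and 96 barcodes. Levels are given as CPM, the UMIs of a gene over those of all genes in the cells of a class and library, scaled to 1000000.

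IL-1β, encoded by Il1b, is made as an inactive precursor by myeloid cells and is cut by caspase-1 in the inflammasome, and IL-18 is activated in the same way but is stored as precursor by many epithelia. The antagonist encoded by Il1rn occupies the IL-1 receptor without signaling. TNF acts through NF-κB, IL-10 dampens macrophage activation through STAT3, and oncostatin M (Osm), secreted by leukocytes, acts on stromal and epithelial cells through OSMR paired with gp130. CSF1 and IL-34 share the receptor CSF1R, on which most tissue macrophages depend for survival. In the injured kidney CSF1 and IL-34 from tubular cells are known as signals to macrophages. Counts in these libraries were not scaled to transcript length, so levels are compared between cells for one gene and not between genes.

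Promoter sequence is shown for 4 of the genes whose values the results turn on: Il1b and Tnf, whose ratios lay on opposite sides of 1 in the same macrophage-like cells, Il1rn, and Csf1. The sequences are RefSeq promoter windows of build GRCm38.p6, 5′ to 3′ on the strand of the gene and ending at the base before the annotated start, or 7 bases short of it for Il1rn, with the motif named below in capitals. Bases inside an annotated exon were left out of the windows.
Il1b, chr2:129371140-129371389, minus strand: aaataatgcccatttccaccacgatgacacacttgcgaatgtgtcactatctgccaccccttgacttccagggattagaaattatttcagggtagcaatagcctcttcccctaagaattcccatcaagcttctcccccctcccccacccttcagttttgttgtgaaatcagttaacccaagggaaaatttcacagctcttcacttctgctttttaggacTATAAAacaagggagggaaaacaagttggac
Tnf, chr17:35202008-35202257, minus strand: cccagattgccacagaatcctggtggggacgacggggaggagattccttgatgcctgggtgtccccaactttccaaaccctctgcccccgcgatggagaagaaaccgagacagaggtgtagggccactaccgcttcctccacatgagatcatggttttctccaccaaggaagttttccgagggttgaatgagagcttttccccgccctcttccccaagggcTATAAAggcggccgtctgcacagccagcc
Il1rn, chr2:24336610-24336852, plus strand: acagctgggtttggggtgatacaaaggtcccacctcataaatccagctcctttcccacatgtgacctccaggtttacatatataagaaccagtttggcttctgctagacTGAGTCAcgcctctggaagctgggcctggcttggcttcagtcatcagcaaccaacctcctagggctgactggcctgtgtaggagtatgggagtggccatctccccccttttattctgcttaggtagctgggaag
Csf1, chr3:107760470-107760719, minus strand: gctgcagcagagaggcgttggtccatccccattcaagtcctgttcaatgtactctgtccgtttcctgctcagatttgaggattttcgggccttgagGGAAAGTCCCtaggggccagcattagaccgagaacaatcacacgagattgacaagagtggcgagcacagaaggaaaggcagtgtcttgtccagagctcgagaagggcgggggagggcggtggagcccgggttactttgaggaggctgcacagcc
Both strands of each window were searched for TATAAA, the AP-1 motif TGANTCA, the STAT motif TTCNNNGAA, the PU.1 motif GAGGAAGT and the NF-κB consensus. TATAAA began 31 bases before the start of Il1b and 29 bases before that of Tnf, and 12.4% of all 32851 promoter windows held it. At the upstream start of Il1rn a TGAGTCA stood 141 bases before the RefSeq start (6.75% of windows hold an AP-1 match), and the Csf1 window held an NF-κB match on the opposite strand 154 bases before the start (7.25% of windows). Il1rn has further annotated starts downstream, and 3′ UMI counts do not show which start was used. Il1b lies on chromosome 2 from 129364570 to 129371139 (minus strand, GRCm38) and shares 1243 bases with the antisense gene Il1bos, which had 2, 12 and 0 UMIs in the 3 libraries against 4089, 19814 and 174 for Il1b over all barcodes. How far the counting used strand is not given in the sources used here.

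The 10 genes fell into 3 patterns of cell source. Macrophage-like cells held most UMIs of Il1b (66.2% in Sham and 77.6% in IRI24h-TDN), Tnf (86.3% and 85.4%), Osm (54.8% and 64.2%) and Il10 (82.1% and 70.7%). Podocyte-like cells held most UMIs of Il18 (85.8% and 86.9%), and podocyte-, PEC-, tubule- and stromal-like cells those of Il34, Csf1 and Osmr. Csf1r and Il1rn were divided between leukocytes and kidney cells. Of the Csf1r UMIs in Sham, 45% were in PEC-like and 33.6% in macrophage-like cells, and in IRI24h-TDN 1.35% and 69%. These shares also follow how many cells of each class the sort and the mixture put into a library.

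**Figure D1:**
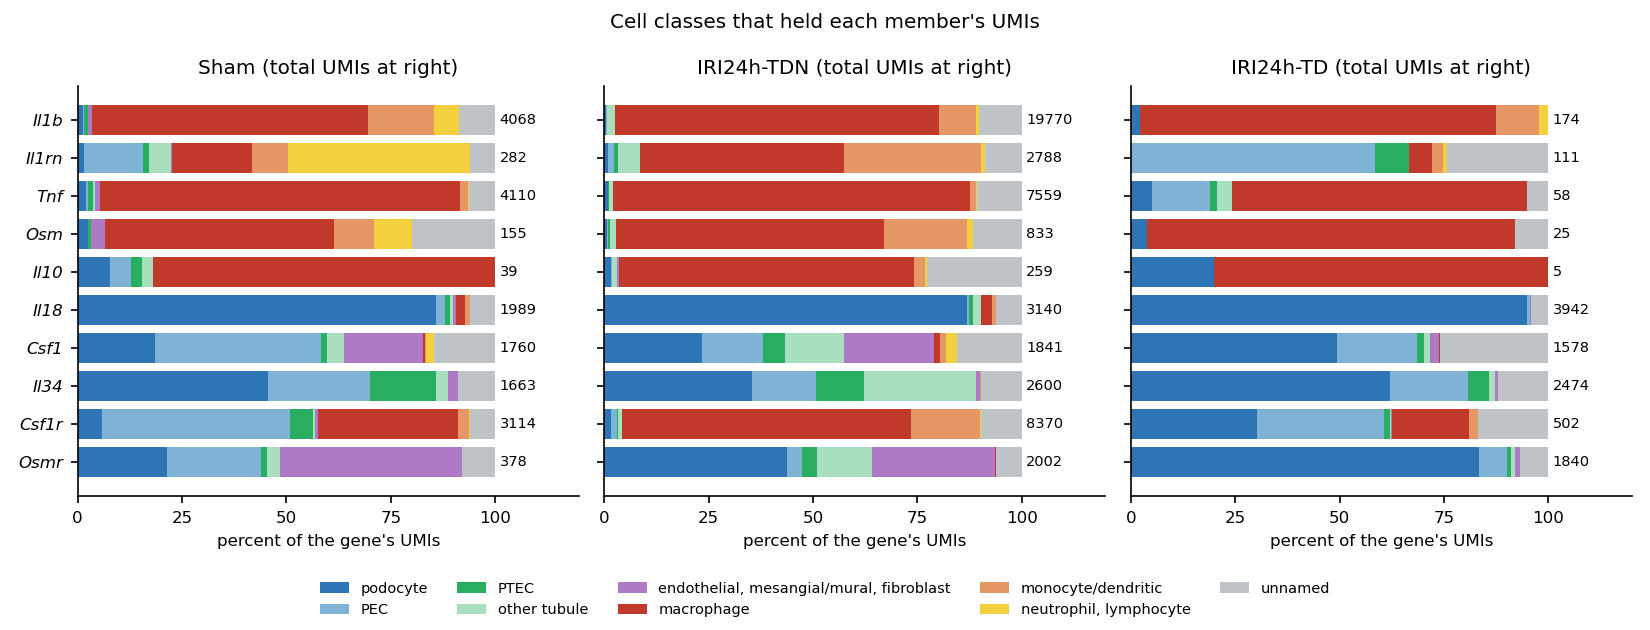
Percent of each gene's UMIs (x axis) held by each cell class in the Sham, IRI24h-TDN and IRI24h-TD libraries, with the gene's total UMIs at the right of each bar. Il1b had 4068, 19770 and 174 UMIs in the 3 libraries, mostly in macrophage-like cells, and Il18 had 1989, 3140 and 3942, mostly in podocyte-like cells.

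Il1b was counted in most macrophage-like cells in both conditions and was higher in them after IRI. Its level in macrophage-like cells was 2585 CPM (2488 to 2685) in Sham and 4065 CPM (4000.5 to 4129) in IRI24h-TDN, a ratio of 1.57 (1.51 to 1.64). The share of these cells with a UMI was 84.9% (79.7 to 89.2) and 84.4% (81.3 to 87.1) of cells, and did not differ beyond counting error. With every cell thinned to 2000 UMIs, the median macrophage-like cell held 3.0 Il1b UMIs in Sham and 5.0 in IRI24h-TDN, and the highest cell held 45.0 and 63.0. The median of all 9343 genes compared in this class was itself higher in IRI24h-TDN, by 0.26 on the log2 scale against 0.65 for Il1b, and TMM scaling, which centres the bulk of genes, takes 0.11 off each log2 ratio here. In monocyte- and dendritic-like cells Il1b went the other way, from 1992 to 1202 CPM, a ratio of 0.603 (0.551 to 0.662). That class was made of different subclusters in the 2 libraries: in Sham 27 of its 48 cells were in the subcluster led by Xcr1, a marker of cross-presenting dendritic cells, and in IRI24h-TDN 118 of 225 were in the subcluster led by Arg1.

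Within the leukocyte subclusters, each named here by its leading gene, the highest Il1b after IRI was in the Cd209a-led dendritic-like cells. Their level was 5579 CPM in 7 Sham cells and 6478 CPM in 27 IRI24h-TDN cells. The Rims2-led macrophage-like cells, the largest macrophage subcluster after IRI, stood at 4770.1 and 5602 CPM. All 6 macrophage-like subclusters were higher in IRI24h-TDN, from 1339 to 1525 CPM in the Lyve1-led to 2189 to 4509.6 CPM in the Apold1-led cells. In the Arg1-led cells the level was 3578 CPM in 8 Sham cells and 440.2 CPM in 118 IRI24h-TDN cells, and in the Ace-led cells, Ace being a gene of non-classical monocytes, 5369.5 and 759 CPM. These 2 groups of monocyte-like cells thus held the lowest Il1b of the myeloid cells after IRI, although Sham gave only 8 and 6 cells for the comparison. Neutrophil-like cells, 19 and 12 in number, held 6367 and 4387 CPM.

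Outside the leukocytes Il1b was low. Podocyte-like cells held 1.49 (Sham), 1.83 (IRI24h-TDN) and 0.0485 CPM (IRI24h-TD), the last from the library that held 10 macrophage-like cells. The complement genes C1qa, C1qb and C1qc, which mark macrophages, differed alongside: C1qc was at 2.15, 4.65 and 0.182 CPM in podocyte-like cells, and there were 31.0 Il1b UMIs per 100 C1q UMIs in Sham podocyte-like cells against 32.9 in Sham macrophage-like cells. The share of podocyte-like cells with an Il1b UMI was 1.14%, 1.59% and 0.0494% at median depths of 8321, 9400 and 9818.5 UMIs, and the source of these UMIs was not tested. In IRI24h-TDN the same ratio was 18.7 in podocyte-like and 30.9 in macrophage-like cells. The highest value among epithelial classes was 45.8 CPM in the intercalated-like cells of IRI24h-TDN (0.472 CPM in Sham), where 20 of 357 cells held all 227 UMIs and 1 cell held 46.3% of them. That class also had 106 Il1b UMIs per 100 C1q UMIs, above the macrophage value of the same library. An unnamed cluster of 50 cells, 5 from Sham and 45 from IRI24h-TDN, was led by Il1b, C1qc and Tnf although its best-scoring marker list was that of podocytes and the next that of macrophages, and the unnamed cells together held 8.7% and 10.2% of all Il1b UMIs of these 2 libraries.

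The antagonist Il1rn had a larger ratio than Il1b in both myeloid classes. In macrophage-like cells Il1rn was at 51.8 CPM (38.9 to 67.6) in Sham and 361 CPM (342 to 381) in IRI24h-TDN, a ratio of 6.97 (5.31 to 9.32). Cells with an Il1rn UMI made up 3.36% (1.46 to 6.52) and 32.9% (29.2 to 36.7), or 1.75% and 22.8% at 2000 UMIs per cell. One Sham cell held 55.6% of the 54 Sham UMIs, and without the top cell of each library the log2 ratio was 3.88 in place of 2.80. The second myeloid class gave the same direction, with 74.7 CPM on 24 UMIs and 637 CPM in monocyte- and dendritic-like cells, a ratio of 8.53 (5.69 to 13.4). Its make-up differed, with Arg1-led cells being 8 of 48 in Sham and 118 of 225 in IRI24h-TDN, and the part of this in the ratio was not tested. The Arg1-led cells carried 451 and 851 CPM, with a UMI in 67.8% of the IRI24h-TDN cells, and so joined the lowest Il1b after IRI to a high Il1rn. Of the 210 macrophage-like cells with an Il1rn UMI in IRI24h-TDN, 183 also held an Il1b UMI, and all 8 did in Sham. Among all macrophage-like cells 84.4% and 84.9% held an Il1b UMI in these libraries. Neutrophil-like cells held 3197 CPM in 19 Sham cells and 641 CPM in 12 IRI24h-TDN cells, and those few Sham cells held 43.6% of the Il1rn UMIs of their library.

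Il1rn was also present in part of the tdT-labelled epithelium. In Sham PEC-like cells Il1rn stood at 5.79 CPM, and the IRI24h-TDN and IRI24h-TD libraries gave 19 and 20.5 CPM, ratios to Sham of 3.29 (2.1 to 5.15) and 3.55 (2.36 to 5.4). The PEC-like class had 2 clusters, one led by Tnc, with Adamts5 and Cp, and one led by Gc, whose second-best marker list was that of PTECs. Nearly all of the Il1rn lay in the Gc-led cluster, at 10.8, 29.8 and 34.8 CPM, and the Tnc-led cluster held 0.304, 1.1 and 0 CPM. In IRI24h-TD, where C1qa, C1qb, C1qc and Ptprc had 0 UMIs in PEC-like cells, 12.7% of PEC-like cells had an Il1rn UMI. PTEC-like cells held 0.478, 8.92 and 11.1 CPM on 4, 25 and 9 UMIs. In podocyte-like cells Il1rn stayed under 0.5 CPM in every library, with 0 UMIs in the 8102 IRI24h-TD cells, which allows up to 0.0364 CPM. Distal convoluted tubule-like cells of IRI24h-TDN held 13.4 CPM, 25.9% of it in 1 cell, and in ascending limb-like cells of Sham 1 cell held all 13 UMIs.

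**Figure D2:**
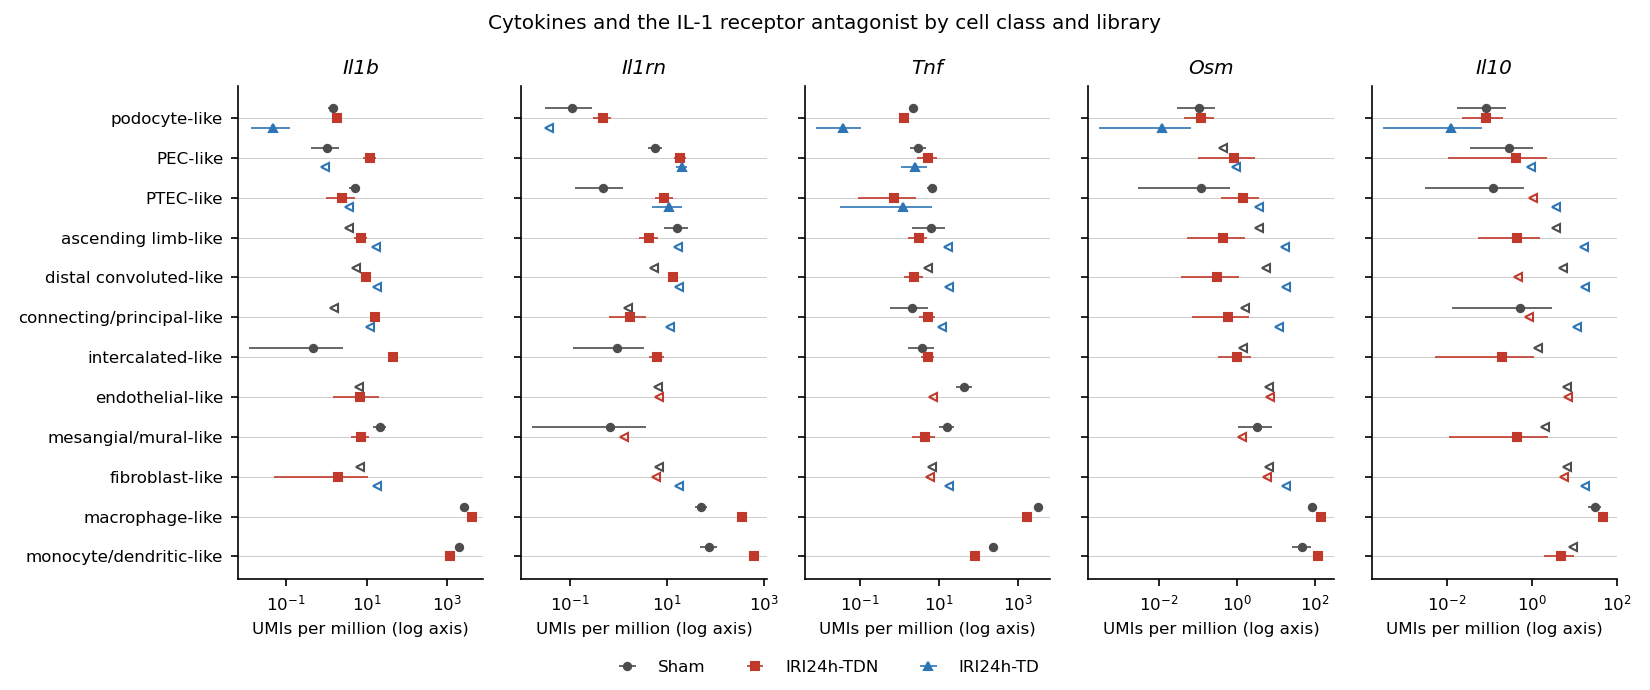
CPM of Il1b, Il1rn, Tnf, Osm and Il10 (x axes, log scale) in each cell class of the Sham (grey circles), IRI24h-TDN (red squares) and IRI24h-TD (blue triangles) libraries. Bars are 95% Poisson intervals, open triangles mark the limit that a count of 0 allows, and classes of fewer than 20 cells in a library are left out. Il1b of both myeloid classes lies far to the right of the epithelial classes, Il10 of Sham monocyte- and dendritic-like cells is at 0 UMIs, and Il1rn is also seen in PEC-like cells of all 3 libraries.

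Tnf was lower after IRI in the same macrophage-like cells in which Il1b was higher. Its level was 3405 CPM (3294 to 3519) in Sham and 1711 CPM (1669.7 to 1753) in IRI24h-TDN, a ratio of 0.503 (0.482 to 0.524), just short of the 2-fold limit used for calls, which it passed after TMM scaling at a log2 ratio of -1.10. The median macrophage-like cell held 6.0 Tnf UMIs in Sham and 1.0 in IRI24h-TDN out of 2000, and the share of cells with a UMI at that depth was 90.4% and 66.8%. All 6 macrophage-like subclusters were lower, from 4850.4 to 1623 CPM in the Rims2-led and from 1789.7 to 1049 CPM in the Lyve1-led cells. Immediate-early genes, which respond fast to stress, were lower too: in macrophage-like cells Egr1 went from 6281 to 899 CPM, Fos from 2974 to 1101, Jun from 3598 to 914 and the heat-shock gene Hspa1a from 3476 to 886. Their part in the Tnf values was not tested. Without the subcluster led by Hspa1a the log2 ratio of Tnf was -1.16 in place of -0.99. Monocyte- and dendritic-like cells, whose subclusters differed between the libraries, held 237 and 82.7 CPM, a ratio of 0.349 (0.26 to 0.472). In podocyte-like cells Tnf was at 2.15, 1.32 and 0.0364 CPM, with 44.8 and 13.4 Tnf UMIs per 100 C1q UMIs in Sham and IRI24h-TDN against 43.3 and 13 in macrophage-like cells.

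Osm and Il10 had fewer UMIs and were counted mostly in myeloid cells. Osm stood at 81.6 CPM (65.2 to 101) in Sham and 142 CPM (130.1 to 154) in IRI24h-TDN macrophage-like cells, a ratio of 1.74 (1.38 to 2.21), with a UMI in 17.2% and 37.4% of cells. Monocyte- and dendritic-like cells held 46.7 CPM on 15 UMIs and 115 CPM, a ratio of 2.47 (1.45 to 4.51), which turned to a log2 ratio of -0.21 when clusters were cut at a resolution of 2 in place of 1. Over all cells outside the named leukocytes and the unnamed, Osm had 10, 23 and 1 UMIs in the 3 libraries. Il10 was at 30.7 CPM (21 to 43.4) and 48.5 CPM (41.7 to 56.1) in macrophage-like cells, a ratio of 1.58 (1.08 to 2.38), in 3.78% and 6.42% of cells. Its level was highest in the Lyve1-led subcluster, Lyve1 being a gene of perivascular resident macrophages, at 135 and 111 CPM, where 2 of 16 and 7 of 63 cells had a UMI. Most cells with Il10 were in other subclusters, 23 of the 41 IRI24h-TDN cells being Rims2-led. All 9 Sham and 37 of the 41 IRI24h-TDN macrophage-like cells with Il10 also held Tnf. Among all macrophage-like cells 93.3% and 84.0% held a Tnf UMI, so the overlap was near that share.

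**Figure D3:**
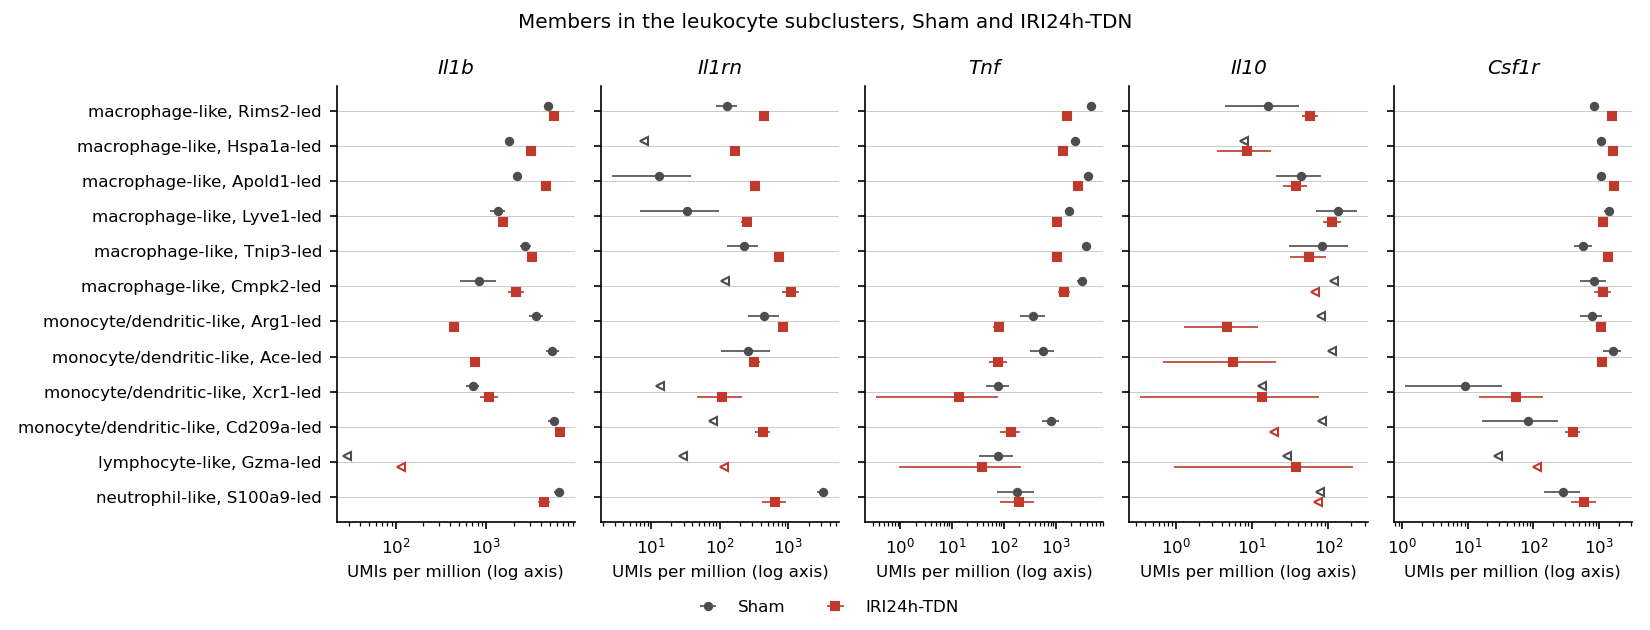
CPM of Il1b, Il1rn, Tnf, Il10 and Csf1r (x axes, log scale) in leukocyte subclusters with at least 5 cells in both Sham (grey circles) and IRI24h-TDN (red squares), named by class and leading gene. Bars are 95% Poisson intervals and open triangles the limit that a count of 0 allows. Tnf lies further left in IRI24h-TDN in each macrophage-like subcluster while Il1b lies further right, and Il1b of the Arg1-led cells lies left of its Sham value.

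Against all genes, the members did not stand apart in number in macrophage-like cells: of the 8 members with at least 20 UMIs over both libraries, 1 (Il1rn) was at least 2-fold higher in IRI24h-TDN and 1 (Il18) at least 2-fold lower, where 16.4% of all genes were higher and 8.17% lower. In monocyte- and dendritic-like cells 3 of 7 were higher (Il1rn, Osm and Csf1r) and 2 lower (Tnf and Il18), beside 25.2% and 8.78% of all genes. Genes of the same pathways, in lists chosen with earlier results of these data known, are given by counts. Of the IL-1 and inflammasome genes, 2 of 16 compared were higher in macrophage-like cells and 1 was lower, with a median log2 ratio of 0.17 beside 0.26 over all genes. Il1a, the second IL-1 agonist, went from 30.7 to 119 CPM, Il1rap, the shared receptor subunit, from 1.92 to 11.7 CPM, and the IL-33 receptor Il1rl1 from 34.6 to 11.1 CPM. Of the TNF list, 0 of 16 were higher and 2 lower (median 0.01): Ltb from 13.4 to 2.92 CPM and the NF-κB inhibitor Tnfaip3, itself an NF-κB target, from 1338 to 531 CPM. In the IL-10 list 2 of 5 were higher and 1 lower, with Bcl3 from 20.2 to 97.8 CPM and Hmox1 (heme oxygenase) from 404 to 984 CPM. The gp130 list had 3 of 12 higher, among them Socs3, a feedback inhibitor induced by STAT3, from 155 to 338 CPM.

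In monocyte- and dendritic-like cells Hmox1 went from 46.7 to 1080.0 CPM, the transcription factor gene Cebpb from 349 to 1823 CPM and Irf8, needed for dendritic cells, from 1174 to 151 CPM. Irf8 and the subcluster make-up moved together: the Xcr1-led cells were 27 of 48 in Sham and 13 of 225 in IRI24h-TDN. Of the IL-10 list 3 of 5 were higher here (median log2 ratio 1.32, all genes 0.34), and of the TNF list 2 of 14 were higher and 2 lower, where 25.2% of all genes were higher and 8.78% lower. Tnfaip3 was again lower, from 498 to 97.2 CPM, and so was Nfkbia, the gene of the inhibitor IκBα, from 1550.2 to 526 CPM.

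Most Il18 UMIs lay in podocyte-like cells, the most numerous class, although in Sham the level was higher in monocyte- and dendritic-like cells and close to it in macrophage-like cells. Podocyte-like cells held 47.1 CPM (44.9 to 49.4) in Sham, while IRI24h-TDN gave 56.1 CPM (54 to 58.2) and IRI24h-TD 45.3 CPM (43.9 to 46.8), and no other kidney class with at least 20 cells passed 25 CPM in any library. The ratios to Sham, 1.19 (1.12 to 1.27) and 0.962 (0.908 to 1.02), left the 2 IRI libraries on opposite sides of Sham, and IRI24h-TD stood at 0.808 (0.769 to 0.85) of IRI24h-TDN, so the libraries of one condition differed by as much as the conditions. A UMI was found in 24.9%, 33.5% and 30.4% of podocyte-like cells, or 8.23%, 9.64% and 8.25% at 2000 UMIs per cell, with no more than 5 in one cell. Mesangial- and mural-like cells, which hold little of it, had a UMI in 0.37% and 0.465% of cells at median depths of 5315 and 4872.5 UMIs. In macrophage-like cells, a known source of IL-18, the level was 43.2 CPM (31.5 to 57.8) in Sham and 20.4 CPM (16.1 to 25.5) in IRI24h-TDN, a ratio of 0.473 (0.323 to 0.699). The monocyte- and dendritic-like class, whose subclusters differed between the libraries, gave 68.5 and 25 CPM. In PTEC-like cells the 21, 24 and 3 UMIs gave 2.51, 8.57 and 3.7 CPM.

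The receptor for oncostatin M was higher after IRI in podocyte-, PEC- and PTEC-like cells of both IRI libraries. Osmr was at 2.24 CPM (1.78 to 2.78) in podocyte-like cells of Sham, 18 CPM (16.9 to 19.3) of IRI24h-TDN and 18.6 CPM (17.7 to 19.6) of IRI24h-TD, ratios to Sham of 8.07 (6.42 to 10.3) and 8.33 (6.66 to 10.6). The share of podocyte-like cells with a UMI went from 1.47% (1.13 to 1.88) to 12.7% (11.8 to 13.6) and 13.9% (13.2 to 14.7), and 0.427%, 3.34% and 3.02% at 2000 UMIs per cell. No cell held more than 3.7% of the UMIs of its library. PTEC-like cells went from 0.597 CPM (5 UMIs) to 24.3 and 22.2 CPM, ratios of 40.6 (16.6 to 129) and 37.1 (13.3 to 128). PEC-like cells stood at 12.3, 29.8 and 38.9 CPM, with both clusters higher after IRI, the Tnc-led from 21.6 to 40.8 and 61.7 and the Gc-led from 3.86 to 23.2 and 23. Leukocytes served as the reference that should lack the receptor: macrophage-like cells had 5 UMIs in 639 IRI24h-TDN cells (0.626% of cells at a median of 5335 UMIs) and none in 238 Sham cells, which allows up to 2.88 CPM.

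Stromal classes had the highest Osmr levels in Sham, while PEC- and podocyte-like cells held 22.5% and 21.4% of its UMIs. Endothelial-like cells stood at 119 CPM in Sham and 77 in IRI24h-TDN, whose ratio of 0.647 (0.406 to 1.02) holds 1. Mesangial- and mural-like cells went from 56 to 188 CPM, a ratio of 3.37 (2.66 to 4.31), with a UMI in 18.1% and 48.1% of cells. Fibroblast-like cells read 61.1, 255 and 47.2 CPM, but 93 of the 171 cells in that class scored highest for PEC markers cell by cell, and the class was 98, 39 and 34 cells. Ascending limb-like cells went from 4.99 (4 UMIs) to 19.6 CPM. Distal convoluted tubule-like cells held 10.8 and 15.1, connecting tubule- and principal-like cells 1.05 and 4.63, and intercalated-like cells 0 and 12.5 CPM. In Sham the order ran from endothelial-like over fibroblast-, mesangial-, PEC- and distal convoluted-like down to ascending limb-, podocyte-, connecting tubule-, PTEC- and intercalated-like cells. In IRI24h-TDN fibroblast- and mesangial-like cells came first, then endothelial-, PEC- and PTEC-like cells, and the intervals of PTEC-like cells (18.8 to 30.8 CPM) overlapped those of their neighbours, PEC-like cells (23.3 to 37.5 CPM) and ascending limb-like cells (15.8 to 24.2 CPM).

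Csf1 was spread over stromal and glomerular cells, and PTEC-like cells were the class in which it was called higher after IRI. Endothelial-like cells held 254 and 254 CPM in Sham and IRI24h-TDN, a ratio of 1.0 (0.765 to 1.32), and mesangial- and mural-like cells 82.6 and 58.5 CPM, a ratio of 0.709 (0.551 to 0.913). PEC-like cells stood at 101 CPM (93.7 to 109), 111 CPM (98.3 to 125) and 96.4 CPM (85.8 to 108), with ratios to Sham of 1.1 (0.952 to 1.27) and 0.953 (0.83 to 1.09). Podocyte-like cells held 9.0, 8.88 and 9.43 CPM, far below the PEC value. In PTEC-like cells Csf1 went from 3.11 CPM (2.03 to 4.55) in Sham to 34.6 CPM (28.1 to 42.2) in the mixed and 30.8 CPM (19.9 to 45.5) in the tdT+ IRI library, ratios of 11.1 (7.17 to 17.9) and 9.92 (5.5 to 17.9). The Spp2-led cluster made up 259 of the PTEC-like cells in Sham but 3 and 0 in the IRI libraries. The share of PTEC-like cells with a UMI was 1.6%, 21.6% and 12.4%, with 153 and 89 cells behind the IRI values. At 2000 UMIs it was 0.539%, 4.58% and 4.26%. Cells under 2000 UMIs are left out of these thinned shares. The last therefore rests on fewer than 89 cells, the median of that class and library being 2491 UMIs. Fibroblast-like cells read 215, 300.2 and 189 CPM, and the 19 and 12 neutrophil-like cells 702 and 1084. Macrophage-like cells, which carry the receptor, held 6.72 and 7.95 CPM.

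Il34, the second CSF1R ligand, was higher after IRI in PEC-, PTEC- and ascending limb-like cells. PEC-like cells stood at 58.9 CPM (53.3 to 64.9) in Sham, and at 163 CPM (148 to 180.2) and 147 CPM (134 to 161) in the mixed and the tdT+ IRI library, ratios of 2.77 (2.41 to 3.19) and 2.49 (2.18 to 2.85). Both clusters were higher, the Gc-led from 67.6 to 193 and 183 CPM and the Tnc-led from 49.3 to 115 and 94.1 CPM. PTEC-like cells went from 30.9 to 108 and 152 CPM, ratios of 3.48 (2.94 to 4.13) and 4.9 (3.92 to 6.1). Ascending limb-like cells gave 36.2, 110.2 and 159.7 CPM, and intercalated-like cells 5.67 and 23.4 in Sham and IRI24h-TDN. Podocyte-like cells, which held the largest number of Il34 UMIs in each library through their number, stood at 20.9, 19 and 18.6 CPM with ratios of 0.905 (0.821 to 0.997) and 0.887 (0.813 to 0.969). In macrophage-like cells, the reference that should lack it, 1 Sham and 1 IRI24h-TDN UMI were counted. Between Sham and IRI24h-TDN, Csf1 therefore differed beyond counting error in PTEC-like but not in PEC-like cells, and Il34 did in both.

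Csf1r, expected in the macrophage lineage, was also found in PEC-like cells, and there it was lower after IRI. Macrophage-like cells held 1005 CPM (945 to 1068) in Sham and 1530.1 CPM (1491 to 1570.1) in IRI24h-TDN, a ratio of 1.52 (1.43 to 1.63), in 91.6% and 99.4% of cells. PEC-like cells held 203 CPM (192 to 214) in Sham, and after IRI 46.7 CPM (38.5 to 56.2) (IRI24h-TDN) and 48 CPM (40.7 to 56.3) (IRI24h-TD), ratios of 0.231 (0.189 to 0.279) and 0.237 (0.199 to 0.28). A UMI was counted in 55% (51.4 to 58.5), 29.2% (23.2 to 35.9) and 25.1% (20.1 to 30.6) of PEC-like cells, or 27.8%, 8.06% and 6.14% at 2000 UMIs per cell. Podocyte-like cells of the same libraries, which should lack the gene, had one in 3.65%, 2.51% and 1.54%, at 5.02, 2.94 and 1.84 CPM, at median depths of 8321, 9400 and 9818.5 UMIs against 7307.5, 10434 and 10039 in PEC-like cells. In the PEC-like cells of Sham C1qa was at 0.145, C1qb at 3.18, C1qc at 4.34, Lyz2 at 1.74 and the leukocyte gene Ptprc at 2.75 CPM, and there were 2643 Csf1r UMIs per 100 C1q UMIs in them against 12.8 in macrophage-like cells. The 12 macrophage markers, which do not include Csf1r, summed to 477 CPM in PEC-like cells of Sham with none at 0, to 191 CPM in IRI24h-TDN with Trem2 at 0 and to 101 CPM in IRI24h-TD with 8 at 0, against 16252 CPM in macrophage-like cells of Sham. This sum was lower after IRI as Csf1r was, and its part in the Csf1r values was not tested. In IRI24h-TD, C1qa, C1qb, C1qc and Ptprc were at 0 in PEC-like cells and Csf1r was still at 48 CPM.

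Both PEC clusters showed the lower Csf1r. The Gc-led cluster stood at 268, 37.7 and 56.2 CPM and the Tnc-led at 131, 61.7 and 36.3 CPM, so the log2 ratio of IRI24h-TDN to Sham was -1.09 without the Gc-led and -2.83 without the Tnc-led cluster, beside -2.12 for both. PTEC-like cells held 20.6, 4.28 and 9.86 CPM, a ratio of 0.208 (0.106 to 0.374) in IRI24h-TDN. In the monocyte- and dendritic-like class the level went from 239.7 to 964 CPM, but the Xcr1-led cells that filled this class in Sham held 9.09 CPM, and within the Ace-led and Arg1-led cells the levels were 1603 and 1122, and 769 and 1079 CPM. Among the named classes with at least 20 cells in all 3 libraries, PEC-like cells were the one class with Csf1r, Csf1 and Il34 all above the podocyte level in each.

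**Figure D4:**
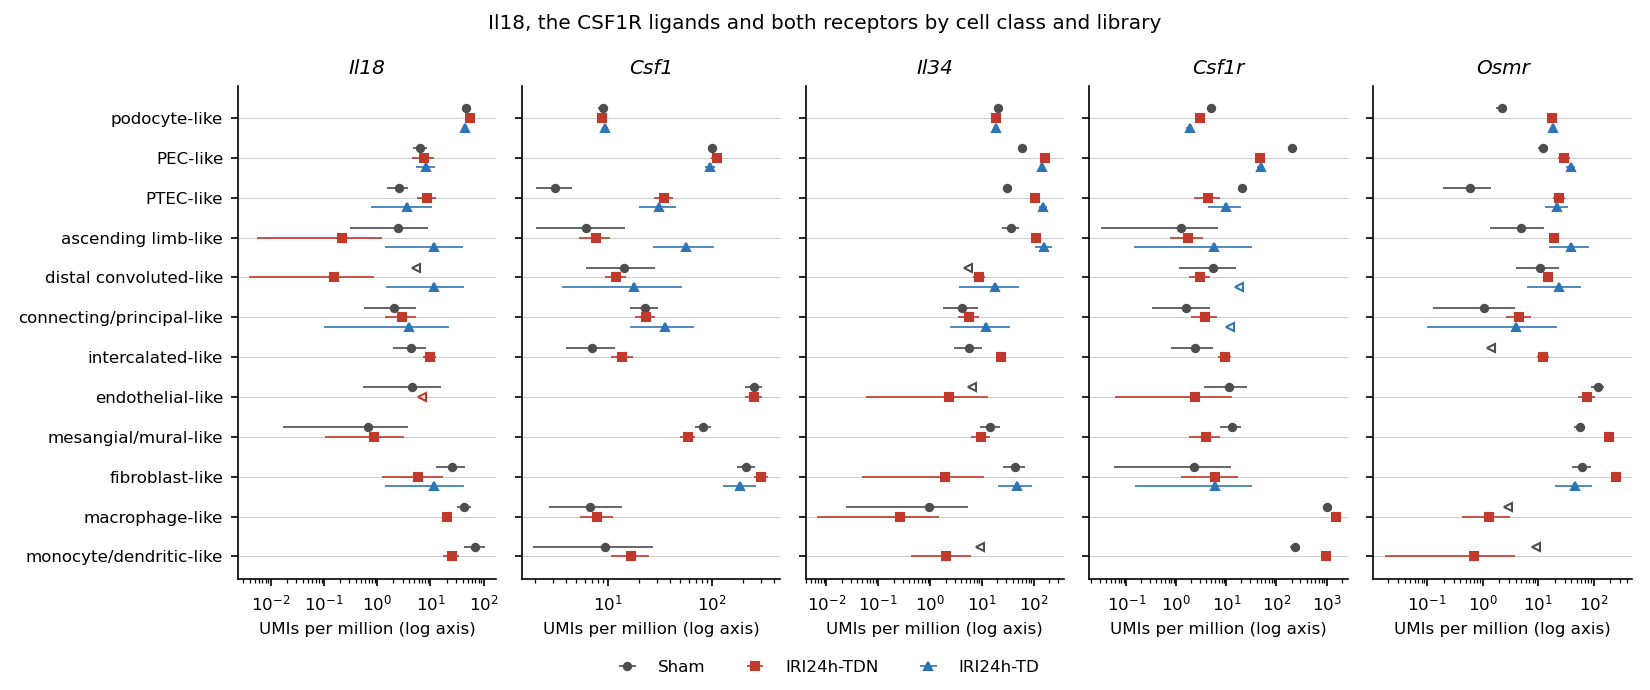
CPM of Il18, Csf1, Il34, Csf1r and Osmr (x axes, log scale) in each cell class of the Sham (grey circles), IRI24h-TDN (red squares) and IRI24h-TD (blue triangles) libraries, with 95% Poisson intervals and open triangles for the limit that a count of 0 allows. Il18 of podocyte-like cells lies right of the other kidney classes, while Sham monocyte- and dendritic-like cells lie further right still, Csf1r in PEC-like cells lies between the macrophage and podocyte values, and Osmr of podocyte- and PTEC-like cells lies further right in both IRI libraries.

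The sorted tdT+ library gave another view of injured podocyte-, PEC- and PTEC-like cells, although both IRI libraries were set against the same Sham library. The ratio of IRI24h-TD to IRI24h-TDN was 1.03 (0.949 to 1.12) for Osmr in podocyte-like cells, and in PEC-like cells 1.31 (0.968 to 1.77) for Osmr, 0.898 (0.783 to 1.03) for Il34, 0.866 (0.733 to 1.02) for Csf1, 1.03 (0.80 to 1.32) for Csf1r and 1.08 (0.729 to 1.61) for Il1rn. Each of these intervals holds 1. In podocyte-like cells the intervals of some members left out 1, all lower in IRI24h-TD. They were Il1b, Il1rn (0 against 23 UMIs), Tnf, Osm (1 against 6 UMIs), Il18 and Csf1r, the last at 0.627 (0.496 to 0.794). The share of all genes with such an interval was not computed, so their number is not read as a result about the members. At this depth a small difference also leaves out 1, as for Il18 at 0.808 (0.769 to 0.85). Il1b in PEC-like cells (0 against 29 UMIs) was lower too, and Il34 in PTEC-like cells was higher in IRI24h-TD at 1.41 (1.13 to 1.74). Against Sham, members at least 2-fold higher in IRI24h-TD numbered 1 of 7 in podocyte-like cells (Osmr, 5.45% of all genes), 3 of 7 in PEC-like cells (Il1rn, Osmr and Il34, 4.39%) and 3 of 7 in PTEC-like cells (Osmr, Csf1 and Il34, 20.6%). Those at least 2-fold lower were Il1b, Tnf and Csf1r in podocyte-like cells (3 of 7, 11.3% of all genes), Csf1r in PEC-like cells (1 of 7, 9.42%) and Tnf and Csf1r in PTEC-like cells (2 of 7, 13.7%). The small tubule and stromal classes of IRI24h-TD gave Il34 higher in ascending limb-like cells, the 1 member compared there (12.4% of genes higher and 17.0% lower), and none called of 3 in fibroblast-like cells (7.05% and 12.1%) and of 1 in connecting tubule- and principal-like cells (11.8% and 13.2%). The IRI24h-TD PTEC-like cells had a median of 2491 UMIs against 15425 in IRI24h-TDN.

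**Figure D5:**
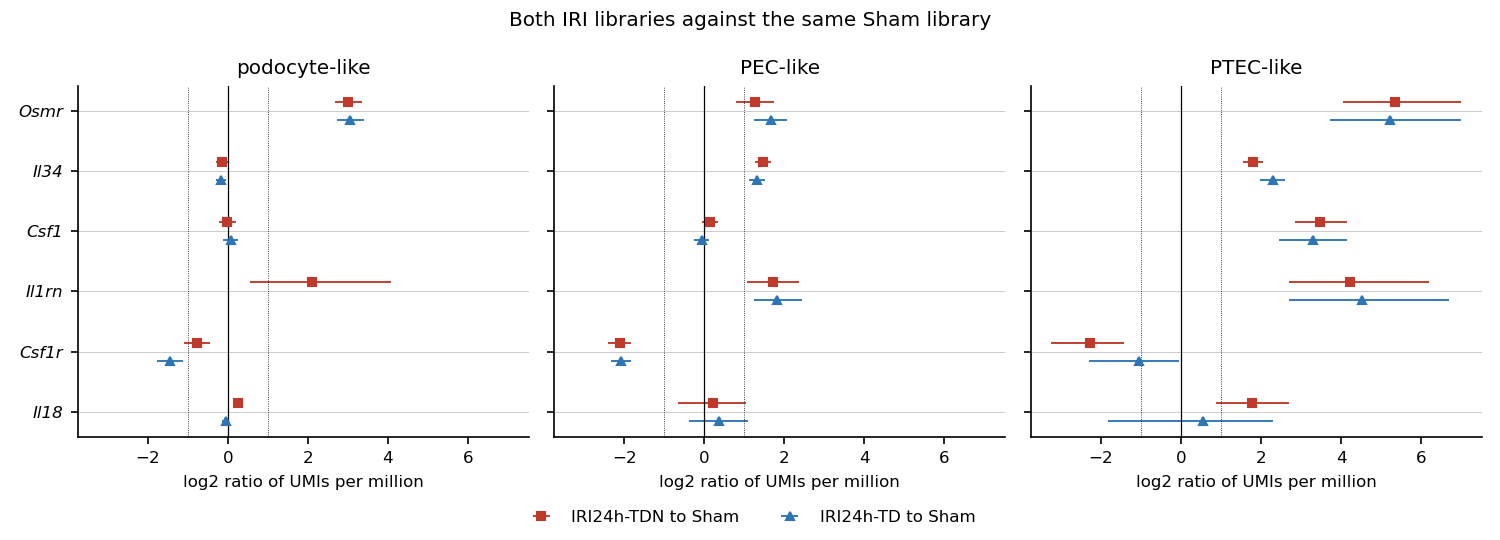
Log2 ratio of CPM (x axis) of IRI24h-TDN (red squares) and IRI24h-TD (blue triangles) to the same Sham library for 6 members in podocyte-, PEC- and PTEC-like cells, with 95% counting intervals and dotted lines at 2-fold. Osmr lies right of the 2-fold line in all 3 classes, Il34 in PEC- and PTEC-like cells, and Csf1r left of 0 in each.

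Members called in each kidney class are given beside the share of all genes called. In podocyte-like cells 2 of 8 members compared (Il1rn and Osmr) were at least 2-fold higher in IRI24h-TDN and 0 lower, beside 5.47% and 9.28% of all genes, the Il1rn value resting on 4 and 23 UMIs. Osm and Il10 had too few UMIs to be compared in podocyte-, PEC- and PTEC-like cells. PEC-like cells had 4 of 8 higher (Il1b, Il1rn, Osmr and Il34) and 1 lower (Csf1r), beside 4.99% and 11.3%, and of the 4 the Il1b value rested on 29 UMIs, 37.9% of them in 1 cell, with Lyz2 at 62.4 CPM in the same cells and 0 Il1b UMIs in IRI24h-TD. PTEC-like cells had 5 of 8 higher (Il1rn, Osmr, Il18, Csf1 and Il34) and 3 lower (Il1b, Tnf and Csf1r), beside 17.5% and 15.1%. TMM scaling left those member counts as they were and moved the share of higher genes among all calls in PTEC-like cells from 53.7% to 41.7%. C1q UMIs in PTEC-like cells were 133 in Sham and 22 in IRI24h-TDN. Per 100 C1q UMIs, Sham PTEC-like cells held 31.6 Il1b and 42.1 Tnf UMIs, against 32.9 and 43.3 in Sham macrophage-like cells. The Il1b ratio in PTEC-like cells, 0.498 (0.189 to 1.12), holds 1, and its log2 value turned to 1.31 without the top 6% of doublet scores. Ascending limb-like cells had 2 of 5 higher (Osmr and Il34) and 1 lower (Il1rn), beside 10.1% and 11.4%, with 46.9% of all calls higher and 58.6% after TMM. Mesangial- and mural-like cells had 1 of 6 higher (Osmr) and 3 lower (Il1b, Tnf and Csf1r, of which 1 Sham cell held 90.6%, 62.5% and 52.6%), beside 5.17% and 6.51%. Intercalated-like cells had 6 of 8 higher (Il1b, Il1rn, Osmr, Il18, Il34 and Csf1r) and 0 lower, beside 9.46% and 6.23%, and their C1q UMIs went from 11 to 214. Connecting tubule- and principal-like cells had 2 of 4 higher (Il1b and Tnf) and 0 lower, beside 8.92% and 7.62%. Their C1q UMIs went from 6 to 104, Il1b from 0 to 55 UMIs, and the Tnf ratio of 2.47 (0.815 to 10) holds 1. Distal convoluted tubule-like cells had 1 of 6 higher (Il1rn) and 0 lower, beside 12.3% and 11.1%. Endothelial-like cells had 0 of 3 higher and 1 lower (Tnf), beside 7.32% and 8.42%, and fibroblast-like cells 1 of 3 higher (Osmr) and 1 lower (Il34), beside 12.8% and 18.5%.

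Pathway genes around the members were also compared in the kidney classes. In podocyte-like cells 5 of 15 TNF-list genes compared were higher and 0 lower, beside 5.47% and 9.28% of all genes, with a median log2 ratio of 0.31 beside -0.05 over all genes. Among them were the NF-κB feedback genes Nfkbia from 447 to 1773 CPM and Tnfaip3 from 45.3 to 226 CPM, and the TWEAK receptor gene Tnfrsf12a from 106 to 237 CPM. Bcl3, a nuclear IκB protein of the IL-10 list, went from 1.66 to 23 CPM and Socs3 from 178 to 466 CPM. In PEC-like cells Nfkbia stood at 1039 and 546 CPM and Tnfaip3 at 93.1 and 50.4 CPM, both short of 2-fold, and 1 of 16 TNF-list genes was higher and 0 lower, beside 4.99% and 11.3% of all genes. Hmox1 in PEC-like cells went from 35.7 CPM in Sham to 177 CPM in IRI24h-TDN and 80.2 CPM in IRI24h-TD. Of the colony-stimulating factor list 2 of 5 were lower in PEC-like cells of IRI24h-TDN, Cebpa from 32.7 to 13.6 CPM and Sdc1, a heparan sulfate proteoglycan that binds IL-34, from 40.9 to 18.6 CPM. In IRI24h-TD these 2 genes stood at 21.2 and 27.5 CPM, both short of 2-fold. There 1 of 5 was lower (Csf2ra), beside 9.42% of all genes.

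In PTEC-like cells, where 17.5% of all genes were higher and 15.1% lower, 8 of 14 TNF-list genes were higher and 0 lower (median log2 ratio 1.12, all genes 0.13), among them the TNF receptor gene Tnfrsf1a from 11.8 to 83.2 CPM and Tnfrsf12a from 42.7 to 352 CPM. The gp130 list had 3 of 10 higher and 0 lower: the ligand gene Clcf1 from 2.39 to 37.8 CPM, Socs3 from 11.9 to 56.8 CPM and Stat3 from 47.4 to 148 CPM. Lifr, another partner of gp130, was at 37.9 and 21.4 CPM. In ascending limb-like cells Sdc1 went from 13.7 to 224 CPM and Lif from 0 to 193 UMIs, at least 11.3-fold higher against a floor of 3 UMIs over the class. Mesangial- and mural-like cells, with their higher Osmr, had Il6 at 26 and 103 CPM and the IL-1 receptor gene Il1r1 at 28.6 and 72.2 CPM. The PTEC- and ascending limb-like cells of IRI24h-TDN also carried fewer of their own marker transcripts, 10917 against 65863 CPM in sum for the 16 PTEC markers and 5010.4 against 13803 for the 6 ascending limb markers, and the part of this in the ratios was not tested.

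Over the 32 class-by-library groups with at least 20 cells, the genes whose log2(CPM + 10) followed each member most closely, among 15563 genes, are given as a description, since groups share libraries and depth. Il1b was closest to the inflammasome gene Nlrp3 (Pearson r = 0.986) and also close to Spi1, and Tnf to the chemokine gene Ccl3 (r = 0.985), then Glipr1 and Ccl4. Il1rn was closest to the chemokine receptor gene Ccr1 (r = 0.940), then Msr1 and Ccl6. Osm followed Klra2 (r = 0.991), Ticam2 and Cd300ld, and Il10 followed Gdf3 (r = 0.997), Hrh1 and Mmp12. Csf1r was closest to Apobec1 (r = 0.925), Rab39 and Tlr2. Osmr was closest to Cavin3 (r = 0.889), Bmp1 and Ltbp1, Csf1 to the basement membrane gene Nid1 (r = 0.906), Chst2 and Pear1, and Il34 to Steap2 (r = 0.873), Steap1 and 2200002D01Rik. Il18 was closest to the IL-6 receptor gene Il6ra (r = 0.901), then Pak1 and Abca9.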

How the data were processed

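Single-cell RNA libraries of mouse kidney cortex were made with the BD Rhapsody system, 1 per condition. The authors deposited whole-number UMI counts per gene and barcode. The submitters' processing notes name CASAVA 1.8, UMI-tools, Seurat and the build mm10, and the aligner is not given in the sources used here. Barcodes with at least 200 genes and at most 50% mitochondrial UMIs were kept. Counts were scaled to 10000 per cell and logged, reduced to 30 principal components of 2000 variable genes, corrected between libraries by Harmony and clustered (Leiden, resolution 1). Clusters were named from 151 marker genes, with score limits of 0.5 (0.35 for the re-clustered leukocytes) that were set after seeing the data. Some PEC markers also occur in a marker list the study drew from these samples. No doublets were removed in the main values, although the study's methods describe a doublet filter of its own, and leaving out the top 6% of doublet scores was an alternative.

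UMIs were summed per class and library, divided by the class total (CPM), and given with exact Poisson, Clopper-Pearson or conditional ratio intervals at 95%. UMI and PCR errors between molecules are not covered. A gene was compared from 20 UMIs over both libraries and called at 2-fold. A count of 0 was read as a limit of 3 counts over the class. Cells were also thinned to 2000 UMIs, leaving out shallower ones. No test across conditions was possible with 1 library each. The members and the 5 pathway lists (73 genes) were chosen with earlier results of these data known. Of each list, up to 4 genes with the largest ratio in a class were eligible to be named, and 3 genes per member for likeness. A few genes that these rules would name are not reported here. Scripts ran in Python 3.11.15 (numpy 2.4.6, scipy 1.17.1, scikit-learn 1.9.0, igraph 0.11.9, leidenalg 0.10.2) and R 4.3.3 (edgeR 4.0.16, for TMM factors only), and were tested on simulated data. The alternatives covered the cell filter, correction, resolution, class rule, scaling, doublets and single cells.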

Additional observations from a re-analysis of the deposited data

Results flagged for a closer look

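For 5 members the ratio of IRI24h-TDN to Sham lay on opposite sides of 1 in 2 cell classes, with both intervals leaving out 1. Classes with few UMIs of a member were left out of this count. Il1rn was not counted for that reason, its ratio of 0.269 in ascending limb-like cells resting on 20 IRI24h-TDN and 13 Sham UMIs. None of these differences between classes was tested, since each condition had 1 library. Il1b had a ratio of 1.57 in macrophage-like and 0.603 in monocyte- and dendritic-like cells, and the latter class was made of different subclusters in the 2 libraries. Il18 had a ratio of 1.19 in podocyte-like and 0.473 in macrophage-like cells. Csf1 had a ratio of 1.40 in fibroblast-like and 0.709 in mesangial- and mural-like cells. The fibroblast-like class was 98 and 39 cells, and many of its cells scored highest for PEC markers cell by cell. Il34 had a ratio of 2.77 in PEC-like and 0.905 in podocyte-like cells. Csf1r had a ratio of 1.52 in macrophage-like and 0.231 in PEC-like cells.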

How the results depend on the processing

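Of 794 log2 ratios of IRI24h-TDN to Sham recomputed under alternatives, 752 kept their sign and 42 did not, 6 of which belong to members called at least 2-fold different. Il1b in PTEC-like cells turned to 1.31 without the top 6% of doublet scores and to 1.0 without cells holding Ptprc, Lyz2 or C1q UMIs. Il1rn in intercalated-like cells turned to -0.30 and Il1b in mesangial- and mural-like cells to 1.81 without such cells, and the latter to 0.40 without its top cell. Osm in monocyte- and dendritic-like cells turned to -0.21 at resolution 2. Osmr in podocyte-like cells stayed between 2.83 and 3.22.

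Il34 in PEC-like cells was 1.13 under the stricter cell filter, 1.06 with no correction between libraries, 1.26 as a mean over cells and 1.22 without the Gc-led cluster. Csf1r in PEC-like cells was -1.51 under the stricter filter, -3.00 with no correction, -2.54 at resolution 2, -1.09 without the Gc-led and -2.83 without the Tnc-led cluster. In PTEC-like cells Csf1 was 2.63 with classes set per cell and Il34 2.10 under the stricter filter. In macrophage-like cells Il1b was 0.56 with no correction, 0.93 at resolution 2, 0.54 with classes per cell, 0.73 as a mean over cells, 0.54 after TMM and 0.50 without the Hspa1a-led subcluster. Il1rn was 3.86 at resolution 2, 3.49 as a mean over cells, 3.88 without its top cell and 2.35 without the Hspa1a-led subcluster. Tnf was -1.08 with no correction, -0.77 at resolution 2, -1.16 with classes per cell, -1.10 after TMM and -1.16 without the Hspa1a-led subcluster. The cause of these shifts was not tested.

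At 3-fold in place of 2-fold, fewer genes pass by construction. Those past it were 1027 of 13235 in podocyte-, 894 of 12114 in PEC-, 1910 of 11306 in PTEC- and 908 of 10098 in ascending limb-like cells. They were 465 of 9810 in mesangial- and mural-, 855 of 9343 in macrophage- and 1180 of 7267 in monocyte- and dendritic-like cells. Members higher and lower at 3-fold were 2 and 0 in podocyte-, 2 and 1 in PEC- and 5 and 2 in PTEC-like cells. Ascending limb-like cells had 2 and 1, mesangial- and mural- 1 and 3, macrophage- 1 and 0, and monocyte- and dendritic-like cells 2 and 0. With at least 50 UMIs, 576 of 7623 genes passed 2-fold in mesangial- and mural- and 1543 of 4999 in monocyte- and dendritic-like cells. Members higher and lower were 1 and 0 in the former and 3 and 2 in the latter. Podocyte-like cells had 1 and 0, beside 551 and 808 of 11906 genes, and PEC-like cells 3 and 1, beside 423 and 912 of 10660. PTEC-like cells had 3 and 2, beside 1565 and 1297 of 9857 genes. Ascending limb-like cells had 2 and 0, beside 771 and 720 of 8270, and macrophage-like cells 1 and 1, beside 1175 and 420 of 7461. The alternatives that leave out the Gc-, Tnc-, Arg1- or Hspa1a-led cells, cells with leukocyte UMIs or PEC-scoring fibroblast-like cells were chosen after seeing the data. Of 1200 levels, 980 moved by less than their counting interval. Classes of few cells (neutrophil-like, fibroblast-like, the IRI24h-TD tubule classes) give wide intervals. No paired analysis was possible because each condition had 1 library and the labels give no replicate numbers.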
